A study of Mus musculus with 2 samples.

Results

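The genes described here were the antioxidant, glutathione and metallothionein genes of mouse embryonic stem cells. They were chosen by gene symbol alone, with a pattern that takes the peroxiredoxins, glutathione peroxidases, thioredoxins and thioredoxin-like genes, glutaredoxins, glutathione transferases of the alpha, mu, omega, pi and theta classes, superoxide dismutases and metallothioneins. It also takes Cat, Gclc, Gclm, Gss, Gsr, Hmox1, Hmox2, Nqo1, Srxn1, Keap1 and the Nfe2l1, Nfe2l2 and Nfe2l3 genes. The pattern found 65 of the 15127 protein-coding genes listed with at least 1 count, and the GENCODE M21 annotation of the GRCm38 genome holds 77 such genes. The cells were of 1 female line, pSM44, made from 129 and castaneus parents, in which doxycycline switches on Xist, the RNA that silences an X chromosome, from the 129 allele. They were grown in serum-free 2i/LIF medium, and doxycycline was given at 2 μg/mL for 24 h. There was 1 group of 2 poly(A) RNA libraries and 1 column of counts, with 10017978 counts in all. The column names no library, and the sources used here do not say whether it pools both. Each gene therefore had a value without a replicate, and errors between cultures are unknown. Untreated cells were not analysed here, so the values describe levels in treated cells and no effect of the treatment.

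The embryonic stem cell label was checked against marker genes. All 8 stem cell markers were at CPM 1 or more, between CPM 232 and 4716, where CPM is the count scaled to a column total of 1000000. Of 8 fibroblast markers, 3 reached CPM 1 (Thy1 at CPM 26.7, Col1a2 at 6.59 and Col1a1 at 5.79), Pdgfra had 5 counts, and Col3a1, Dcn, Lum and Postn were not listed. Of 6 liver markers, 5 were not listed and Apoa1 had 2 counts. Whether fibroblasts contributed to the values of the antioxidant genes was not tested.

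Cells remove hydrogen peroxide and lipid peroxides mainly through peroxiredoxins, which draw electrons from thioredoxin, and through glutathione peroxidases, which draw them from glutathione. NADPH recharges both branches, through thioredoxin reductase and through glutathione reductase. Metallothioneins are small cysteine-rich proteins that bind zinc and copper, and the transcription factor Nrf2 (gene Nfe2l2), held down by Keap1, controls many genes of the whole system.

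Peroxidase, thioredoxin and metallothionein genes were among the most abundant members, and most of the system was detected. Of the 65 listed members, 59 (90.8%) were at CPM 1 or more, against 80.1% of all listed genes. CPM 1 took 11 counts. Counted over the annotation, 59 of 77 members (76.6%) were at CPM 1 or more, against 54.5% of all annotated protein-coding genes. At CPM 100 or more there were 26 members (40.0%), against 15.5% of all listed genes, and Prdx1 and Gpx1 were the highest. The members' median was CPM 53.8, against CPM 18.3 for all listed genes, a difference of 1.51 between the medians on the log2(CPM + 1) scale. Together the members held 111018 counts, or 1.11% of the total (exact Clopper-Pearson 95% interval 1.10 to 1.11). Prdx1 alone held 14.0% of the members' counts, and the top 10 members held 61.2%. Intervals reflect counting error alone, because there was 1 column without a replicate. The reads carry no molecular identifiers and may hold copies of 1 molecule, so the intervals may be too narrow even for that error. In such bulk RNA, fewer cells with a transcript and less of it per cell cannot be told apart.

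**Figure D1:**
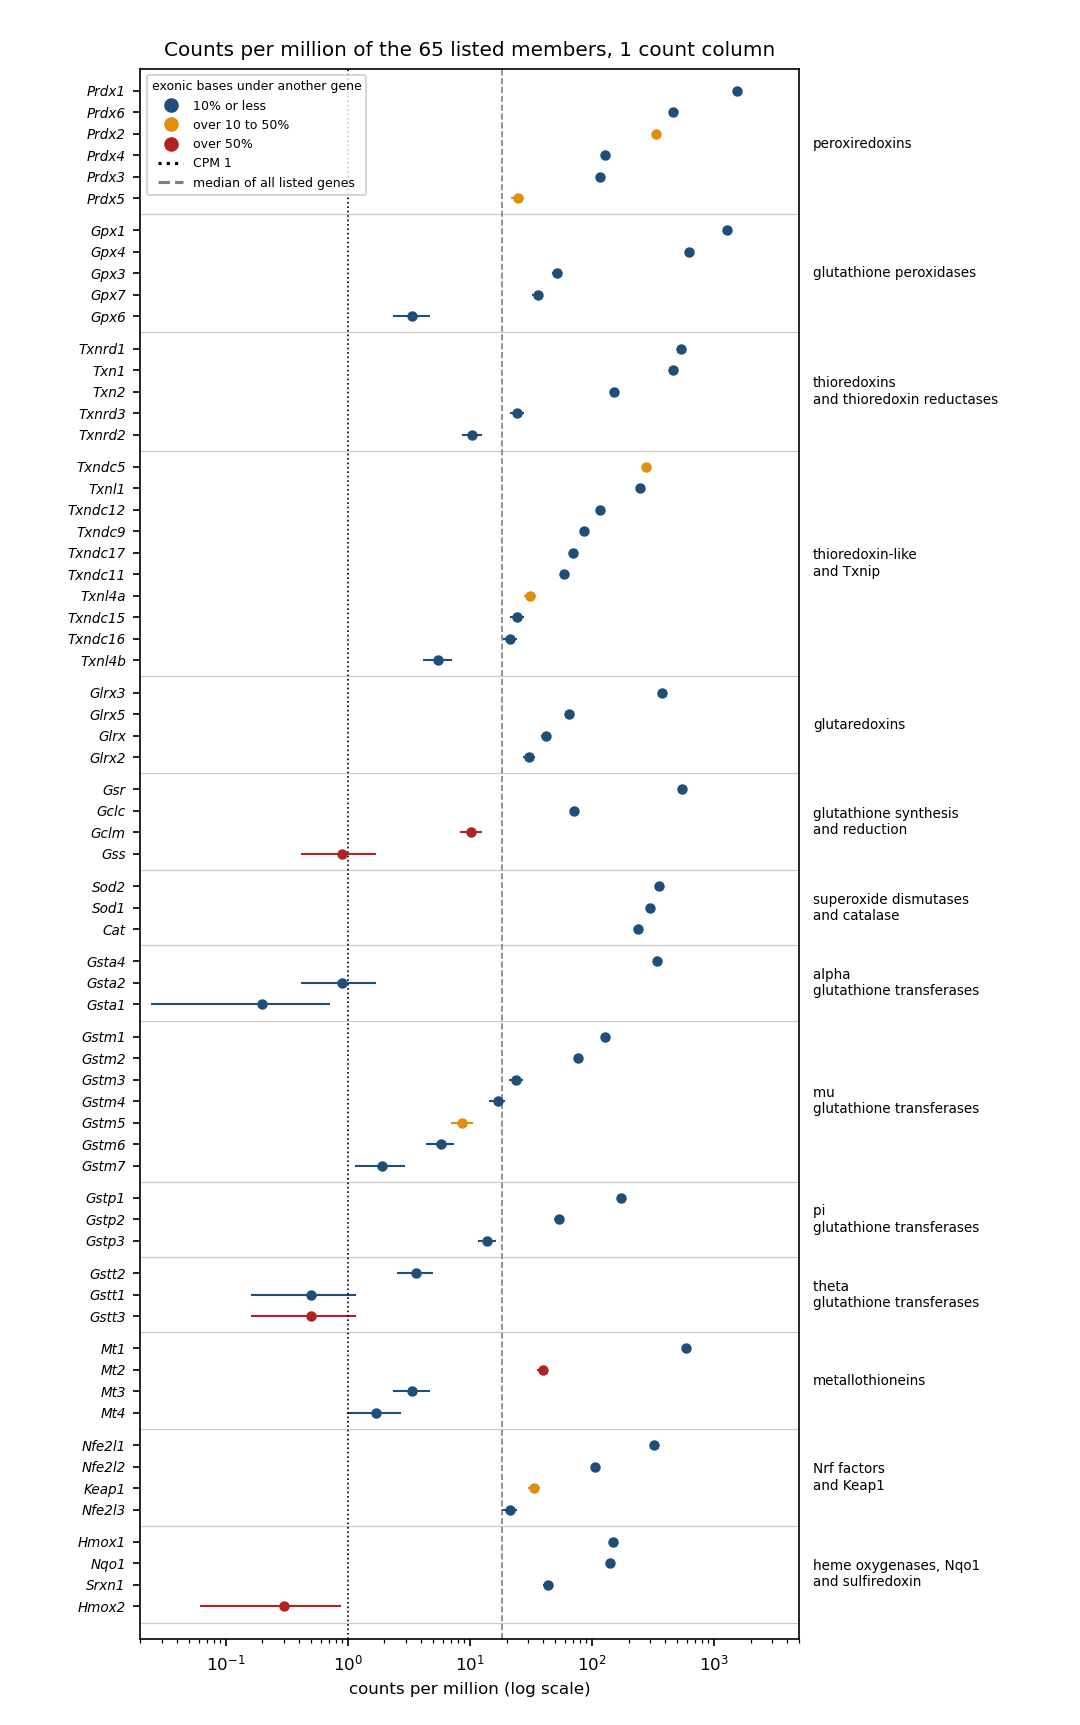
CPM (log axis) of the 65 listed members, grouped by class, with Poisson 95% intervals as horizontal bars, from 1 count column. The 59 members right of the dotted line are at CPM 1 or more, Prdx1 and Gpx1 are farthest right, and point colour gives the share of exonic bases under another gene.

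Below, a level between genes is the count per kilobase of exon, with all exons of the gene merged, scaled in the same way as CPM over the 14896 listed genes that matched the annotation. On that scale the members' median was 60.0, against 12.1 for all listed genes. Of the members, 27 stood at or above percentile 90 of listed genes and 6 at or above percentile 99. In order those 6 were Gpx1 (2806), Prdx1 (1614), Mt1 (1510), Txn1 (1400), Gpx4 (1140) and Gsta4 (848), each level with an interval that did not reach its neighbour's. Dividing by the longest coding transcript in place of all exons changed the order and the members of this group: Gpx1 had 2508, Prdx1 1423, Gpx4 1313, Mt1 1153, Sod1 976 and Txn1 931. Gsta4, at 730, then came after Sod1, whose level over all exons was 237.

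Among the glutathione peroxidases the selenium-containing Gpx1 and Gpx4 dominated. Gpx1, the ubiquitous enzyme that reduces hydrogen peroxide in the cytosol, had 12790 counts, or CPM 1277 (Poisson 95% interval 1255 to 1299). Gpx4, which reduces lipid peroxides inside membranes and protects cells from ferroptosis, had 6214 counts, or CPM 620 (605 to 636). The level per kilobase of Gpx1 was 2.46 times that of Gpx4 (exact interval of the ratio 2.39 to 2.54), and 1.91 times by the longest coding transcript. Transcripts of other genes, among them Gpx4-ps2, held 26.9% of the 90-base words of Gpx4, so its count is uncertain. Gpx3, the secreted plasma enzyme, had 517 counts and a level of 90.2, and Gpx7, of the endoplasmic reticulum, had 361 counts and a level of 88.5. The intervals of those levels, 82.6 to 98.3 and 79.6 to 98.2, overlapped. Gpx6, known from the olfactory epithelium, had 34 counts and a level of 7.86. Gpx2, Gpx5 and Gpx8 were not listed.

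Selenocysteine is written by an in-frame TGA, which otherwise ends a protein, and 7 members carry such a codon. The stretches around it are shown because the leading glutathione peroxidase and the leading thioredoxin reductase both depend on it. They are coding bases of GENCODE M21 transcripts on the GRCm38 build, given 5′ to 3′ on the coding strand with the selenocysteine codon in capitals.
Gpx1: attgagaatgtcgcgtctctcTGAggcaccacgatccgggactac
Gpx2: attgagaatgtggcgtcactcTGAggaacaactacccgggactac
Gpx3: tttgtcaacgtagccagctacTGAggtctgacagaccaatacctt
Gpx4: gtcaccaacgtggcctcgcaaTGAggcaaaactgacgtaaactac
Txnrd1: gacatcctccagtctggctgcTGAggttaa
Txnrd2: gagcctactgtgactggttgcTGAggctaa
Txnrd3: gacattactcagaaaggctgcTGAggctag
The codon is the 47th of 201 in Gpx1, the 40th of 190 in Gpx2, the 73rd of 226 in Gpx3 and the 73rd of 197 in Gpx4, early in each enzyme. In the reductases it is the last codon but 1, the 498th of 499 in Txnrd1, the 526th of 527 in Txnrd2 and the 614th of 615 in Txnrd3. In 7 of 7 the next 2 bases are gg. All 6 selenocysteine genes that were listed reached CPM 1, against 80.1% of all listed genes. Over the annotation the share was 6 of 7, against 54.5% of all protein-coding genes. The 6 listed genes had 25238 counts, or 22.7% of the members' counts, most of them in Gpx1, Gpx4 and Txnrd1. Of Gpx5, Gpx6, Gpx7 and Gpx8, which have no such codon in the annotation, 2 were listed, with 395 counts. Gpx2 and Gpx8, both not listed, lie wholly under other genes, and the part of the codon in these values was not tested.

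Prdx1 led the peroxiredoxins, the thiol enzymes that take most cellular hydrogen peroxide. It had 15531 counts, the highest of any member, at CPM 1550 (1526 to 1575), and held 59.1% of the counts of its family (58.5 to 59.7). Its level per kilobase was 4.59 times that of Prdx2 (4.42 to 4.77), the other main cytosolic form, which had 3391 counts. Prdx6, an enzyme with a single catalytic cysteine that also acts on phospholipids, had 4658 counts and a level of 307, and Prdx2 had a level of 352. Prdx3, the mitochondrial form, had 1171 counts and a level of 250, and Prdx4, the form of the endoplasmic reticulum, had 1284 counts and a level of 193. Prdx4 is the only member on the X chromosome, and the part of the induced Xist in its count was not tested. The order of Prdx3 and Prdx4 turned round by the longest coding transcript, with levels of 167 and 273. Prdx5 was the lowest listed peroxiredoxin, with 247 counts and a level of 36.5, and 12.9% of its words were shared with Trmt112, which overlaps it. All 6 listed members were at CPM 1 or more, and Prdx6b was not listed. Srxn1, sulfiredoxin, which repairs over-oxidised peroxiredoxins, had 440 counts and a level of 49.3.

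The cytosolic thioredoxin system stood far above the mitochondrial one. Txn1, the cytosolic thioredoxin, had 4653 counts and a level of 1400 (1360 to 1441), against 1518 counts and a level of 114 (108 to 120) for Txn2, the mitochondrial one. The ratio of the levels was 12.3, or 5.98 by the longest coding transcript. Among the reductases, cytosolic Txnrd1 had 5368 counts and a level of 240, Txnrd3, known from testis, had 244 counts and a level of 27.2, and mitochondrial Txnrd2 had 105 counts and a level of 7.54. The level of Txnrd1 was 31.8 times that of Txnrd2 (26.2 to 38.9). Txnip, the protein that binds and inhibits thioredoxin, was not listed.

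The 10 listed thioredoxin-like genes, whose proteins share the thioredoxin fold but work in folding, splicing and other processes, were all at CPM 1 or more, with levels from 5.88 to 197. Txndc5, a protein disulfide isomerase of the endoplasmic reticulum, led with 2798 counts and a level of 197. Txndc17, a small cytosolic disulfide reductase, had 704 counts and a level of 168 (156 to 181), and Txndc12, also of the endoplasmic reticulum, had 1169 counts and a level of 164 (155 to 174). Those intervals overlapped. Txnl1, which associates with the proteasome, had 2482 counts and a level of 121. Txndc9, a regulator of the cytosolic chaperonin, followed with 867 counts and a level of 30.1. Txnl4a, a component of the spliceosome, had 313 counts and a level of 22.0. Txndc11 had 595 counts, Txndc15 had 244, Txndc16 had 215 and Txnl4b had 55, at levels between 5.88 and 21.3. The sperm genes Txndc2 and Txndc8 were not listed.

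Glutathione reductase was the most abundant gene of glutathione synthesis and recycling. Gsr, which turns oxidised glutathione back to its reduced form with NADPH, had 5493 counts and a level of 631. Gclc, the catalytic subunit of the enzyme for the rate-limiting step of glutathione synthesis, had 715 counts and a level of 60.0, and its modifier subunit Gclm had 103 counts and a level of 5.18. The ratio of Gclc to Gclm was 11.6 (9.42 to 14.4). Gss, which adds glycine in the last step, had 9 counts, with a level of 0.481 (0.220 to 0.913). In the annotation 90.1% of the exonic bases of Gclm lie under the non-coding gene Gm17494 and 97.7% of those of Gss under Acss2, Gssos1 and Gssos2, and the part of these overlaps in the low values was not tested. Of the glutaredoxins, which use glutathione to reduce disulfides or carry iron-sulfur clusters, Glrx3 had 3738 counts and a level of 236, and 10.6% of its words were shared with other genes. Glrx5, which serves iron-sulfur clusters in mitochondria, had 648 counts and a level of 55.6. Cytosolic Glrx had 425 counts and a level of 24.5, and mitochondrial Glrx2 had 307 counts and a level of 11.1. By the longest coding transcript the order of Glrx5 and Glrx turned round, with levels of 46.6 and 66.4.

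The superoxide dismutases, which turn superoxide into hydrogen peroxide, and catalase, which breaks that down in peroxisomes, had similar counts. Sod2, the mitochondrial manganese enzyme, had 3524 counts, Sod1, the cytosolic copper and zinc enzyme, had 2976, and Cat had 2400. Their order depended on the length used. By all exons the levels were 290 for Cat, 237 for Sod1 and 111 for Sod2, and by the longest coding transcript they were 193, 976 and 126 in the same order. Sod1 has 3970 exonic bases in the annotation but 641 in its longest coding transcript. Of the 90-base words of Sod2, 14.1% were shared with other genes. Sod3, the extracellular enzyme, was not listed.

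Glutathione transferases attach glutathione to reactive compounds, and 1 gene led each listed class. Gsta4, which conjugates the lipid peroxidation product 4-hydroxynonenal, had 3394 counts, or 99.7% of the alpha-class counts (99.4 to 99.8). Its neighbours Gsta2 and Gsta1, both known from liver and kidney, had 9 and 2 counts, and the level of Gsta4 was 351 times that of Gsta2 (184 to 767). The counts of both neighbours are uncertain, since 30.4% of the words of Gsta2 and 82.0% of those of Gsta1 were found in other genes. Gsta3 was not listed. In the pi class, Gstp1 had 1737 counts and a level of 355, Gstp2 had 539 and 153, and Gstp3 had 139 and 48.4. Gstp1 and Gstp2 share long stretches (26.7% and 48.2% of their words occur in other genes), so the split between them is uncertain.

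In the mu class all 7 genes were at CPM 1 or more, in a cluster 149 kb long on chromosome 3. Gstm1 led with 1295 counts and a level of 278, then Gstm2 with 775 counts and 146, and Gstm3 with 241 counts and 58.1. Gstm4 had 169 counts and a level of 31.3, Gstm5 87 and 21.5, Gstm6 58 and 9.22, and Gstm7 19 and 3.75. Along the chromosome the order is Gstm5, Gstm7, Gstm6, Gstm3, Gstm2, Gstm1 and Gstm4, and the levels were not ordered along the whole cluster. Gstm3 shared 16.9% of its words with other genes. In the theta class, Gstt2 had 36 counts (level 2.74), and Gstt1 and Gstt3 had 5 each. Gstt4 of the theta class and Gsto1 and Gsto2, the whole omega class, were not listed.

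**Figure D2:**
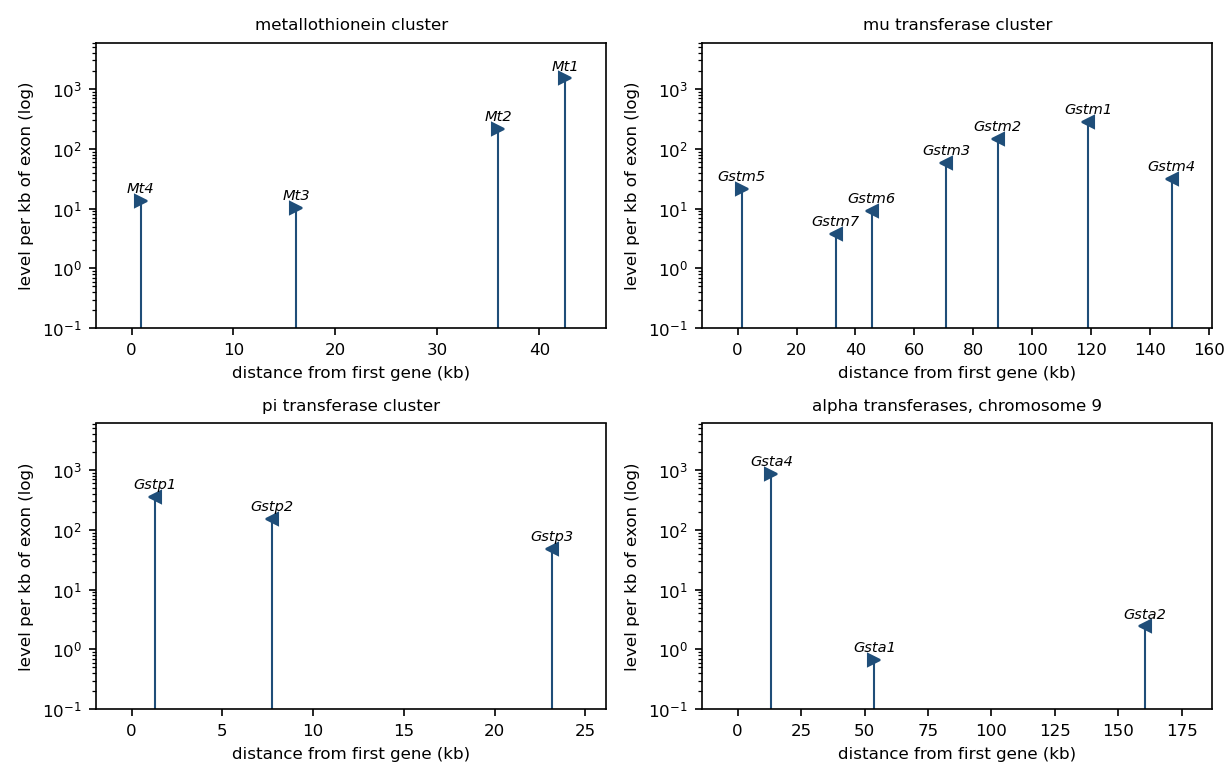
Level per kilobase of exon (log axis) against the distance of each gene's middle from the start of its cluster, for the metallothionein, mu, pi and alpha clusters, with arrowheads for the strand. Mt1 is at 1510 and Mt4 at 13.5 within 43.1 kb, and Gsta4 is at 848 while its neighbours are at 0.661 and 2.42.

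The metallothionein genes differed widely although all 4 lie within 43.1 kb of chromosome 8 on the same strand. Mt1, which together with Mt2 is the broadly expressed, zinc-inducible form, had 5950 counts, or CPM 594 (579 to 609), and 93.0% of the family's counts (92.3 to 93.6). Its neighbour Mt2 had 397 counts, or CPM 39.6 (35.8 to 43.7). Mt3, known from neurons, had 34 counts, and Mt4, known from stratified epithelium, had 17. The level of Mt1 was 7.07 times that of Mt2 (6.39 to 7.85), and 150 times that of Mt3 (107 to 216), or 86.5 times by the longest coding transcript. Mt3 and Mt4 had levels of 10.1 and 13.5, a ratio of 0.747 whose interval, 0.406 to 1.43, held 1, so their order was not determined. An antisense gene, Gm45774, covers 73.5% of the exonic bases of Mt2. The 24.7% of Mt2 words found in another gene are all in Gm45774 as well. The part of this overlap in the low count of Mt2 was not tested.

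The coding sequences are shown because their cysteine codons, which supply the metal-binding thiols, are the feature that all 4 genes share. Coding bases of GENCODE M21 (GRCm38, plus strand of chromosome 8) are given 5′ to 3′ without the stop codon, with cysteine codons in capitals.
Mt1: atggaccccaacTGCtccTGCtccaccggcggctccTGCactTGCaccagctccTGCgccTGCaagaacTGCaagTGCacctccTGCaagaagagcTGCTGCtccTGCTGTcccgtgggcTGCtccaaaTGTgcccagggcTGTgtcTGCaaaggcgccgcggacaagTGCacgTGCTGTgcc
Mt2: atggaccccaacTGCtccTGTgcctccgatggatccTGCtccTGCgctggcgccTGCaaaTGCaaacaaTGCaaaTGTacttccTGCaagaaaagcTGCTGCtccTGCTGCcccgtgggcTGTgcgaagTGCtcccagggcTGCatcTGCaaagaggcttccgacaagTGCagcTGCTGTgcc
Mt3: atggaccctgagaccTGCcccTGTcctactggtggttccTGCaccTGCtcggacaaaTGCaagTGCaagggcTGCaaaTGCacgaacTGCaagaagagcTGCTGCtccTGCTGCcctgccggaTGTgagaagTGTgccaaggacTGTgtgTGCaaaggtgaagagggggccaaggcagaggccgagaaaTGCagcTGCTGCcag
Mt4: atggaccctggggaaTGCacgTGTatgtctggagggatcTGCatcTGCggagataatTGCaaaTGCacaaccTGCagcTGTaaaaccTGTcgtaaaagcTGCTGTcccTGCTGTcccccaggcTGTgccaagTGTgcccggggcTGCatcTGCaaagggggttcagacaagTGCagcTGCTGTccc
Each sequence has 20 cysteine codons, of 61 in Mt1, 61 in Mt2, 68 in Mt3 and 62 in Mt4. Mt1 and Mt2 are identical at 145 of 183 bases (79.2%), and their 20 cysteine codons are at the same positions.

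The promoters of the 4 genes are shown because metallothioneins are known targets of metal response elements. The motif searched, to which the zinc-sensing factor Mtf1 binds, was TGCACNC or TGCGCNC on either strand. The sequences are RefSeq promoters on GRCm38, plus strand, from 250 bases before the start to 50 after it, with matches in capitals. They are Mt1 at chr8:94178839-94179138, Mt2 at chr8:94172368-94172667, Mt3 at chr8:94152357-94152656 and Mt4 at chr8:94136954-94137253.
Mt1: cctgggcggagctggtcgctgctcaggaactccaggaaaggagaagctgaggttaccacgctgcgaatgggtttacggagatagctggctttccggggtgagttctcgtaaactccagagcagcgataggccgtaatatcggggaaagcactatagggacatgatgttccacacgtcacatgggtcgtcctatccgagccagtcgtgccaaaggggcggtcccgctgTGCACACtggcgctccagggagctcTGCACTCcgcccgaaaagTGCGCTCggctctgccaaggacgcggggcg
Mt2: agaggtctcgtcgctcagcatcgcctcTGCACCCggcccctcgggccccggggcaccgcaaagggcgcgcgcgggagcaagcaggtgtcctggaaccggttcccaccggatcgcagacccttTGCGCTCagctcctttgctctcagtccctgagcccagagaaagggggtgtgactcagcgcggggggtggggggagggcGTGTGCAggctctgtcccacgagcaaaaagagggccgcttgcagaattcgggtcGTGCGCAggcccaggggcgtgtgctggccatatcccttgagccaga
Mt3: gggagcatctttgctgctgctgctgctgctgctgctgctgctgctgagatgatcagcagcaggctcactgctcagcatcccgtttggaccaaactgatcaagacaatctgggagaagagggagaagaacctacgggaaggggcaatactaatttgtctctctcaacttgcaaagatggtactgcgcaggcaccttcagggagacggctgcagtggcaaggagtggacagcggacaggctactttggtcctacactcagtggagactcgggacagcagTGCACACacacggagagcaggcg
Mt4: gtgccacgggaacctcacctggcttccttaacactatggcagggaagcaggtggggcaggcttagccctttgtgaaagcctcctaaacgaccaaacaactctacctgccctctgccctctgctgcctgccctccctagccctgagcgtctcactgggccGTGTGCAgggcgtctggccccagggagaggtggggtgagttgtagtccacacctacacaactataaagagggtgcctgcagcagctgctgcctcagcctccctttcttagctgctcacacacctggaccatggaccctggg
The windows held 3 matches in Mt1, 4 in Mt2, 1 in Mt3 and 1 in Mt4. They depend on the RefSeq start, and sites outside them were not counted. Of the 4 windows only that of Mt4 held the letters TATAAA. These letters were not searched for outside the windows, so Mt1, Mt2 and Mt3 are not shown to lack them. With the wider motif TGCNCNC they held 3 in Mt1, 6 in Mt2, 3 in Mt3 and 5 in Mt4, so the numbers depended on the motif, and with neither motif did they follow the order of the counts. At least 1 match of the first motif was found in 25.7% of all 32851 promoters, and 3 or more in 1.97% of them. Among promoters of listed genes at CPM 1 or more, 36.6% held a match. For the wider motif, 51.0% of all promoters held a match and 7.10% held 3 or more. A match is a run of letters and not a measured binding site. Mtf1 itself had 411 counts.

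Among the regulators, the Nrf factors and Keap1 were all at CPM 1 or more. Nfe2l1, known for driving proteasome genes, led with 3266 counts and a level of 190, which was 2.13 times that of Nfe2l2 (1.99 to 2.28). Nfe2l2, which encodes Nrf2, had 1071 counts and a level of 89.2, and Nfe2l3 had 212 counts and a level of 22.5. Keap1, the adaptor that marks Nrf2 for degradation, had 336 counts and a level of 22.6. Hmox1, the inducible heme-degrading enzyme, had 1506 counts, or CPM 150 (143 to 158). Nqo1, a quinone reductase often read as an Nrf2 target, had 1410 counts, or CPM 141 (133 to 148). Their levels per kilobase were 272 and 287, and the interval of the ratio of Nqo1 to Hmox1, 0.981 to 1.14, held 1. Hmox2, the constitutive heme oxygenase, had 3 counts, and the level of Hmox1 was 636 times its level (217 to 3086). Of the exonic bases of Hmox2, 87.8% lie under Cdip1. Of its words, 33.8% occur in other genes, with 30.3% in Cdip1 itself, so that low count is uncertain.

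Antioxidant response elements, the sites bound by Nrf2 with small Maf proteins, were searched as TGACNNNGC on either strand of the RefSeq promoters, which cover 67 of the 77 genes with 93 promoters. The motif was found in 13 of the 93 (14.0%, exact 95% interval 7.66 to 22.7), against 12.4% of all promoters. For genes at CPM 1 or more, it was in 15.3% of member promoters, against 14.1% of all promoters of listed genes. Those 13 belong to 13 genes, and 6 are shown, chosen for the leading peroxiredoxin and reductase, sulfiredoxin, Gclm, Mt2 and the gene of Nrf2 itself. The bases are on the gene's strand on GRCm38, with the match in capitals, read on the opposite strand in Prdx1, Txnrd1, Gclm and Srxn1.
Prdx1: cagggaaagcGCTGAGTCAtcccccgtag
Txnrd1: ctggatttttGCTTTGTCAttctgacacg
Gclm: gctcccgggcGCACCGTCAactctcacga
Srxn1: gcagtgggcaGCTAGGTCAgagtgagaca
Mt2: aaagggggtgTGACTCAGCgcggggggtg
Nfe2l2: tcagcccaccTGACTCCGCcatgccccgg
They lie in the promoter windows chr4:116685349-116685648 for Prdx1, chr10:82858956-82859255 for Txnrd1, chr3:122245307-122245606 for Gclm, chr2:152105274-152105573 for Srxn1, chr8:94172368-94172667 for Mt2 and chr2:75704614-75704913 for Nfe2l2, the last on the minus strand. Matches were also found for Gsta3, Gstm5, Gstm7, Sod1, Txndc2, Txndc5 and Txndc11. A gene was taken as having a match if any of its promoters held the motif. Txnrd1, Gstm7, Txndc2, Txndc5 and Txndc11 each also have a promoter without it. The 11 listed genes with a match had levels from 3.75 to 1614 with a median of 89.2, against 0.411 to 2806 with a median of 52.0 for the 46 listed genes without, and the ranges overlapped. Among those 46 without a match were Nqo1, Gpx1, Txn1 and Cat. Prdx6, Prdx6b, Txnl1, Txnl4a, Gclc, Gsr, Sod3, Gsta4, Gstt2 and Hmox1 were not in the promoter table.

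By class, 12 of the 14 classes with a listed member had a median level per kilobase above the 12.1 of all listed genes. Over all listed members and all exons, the highest medians were 279 for the peroxiredoxins, 237 for the superoxide dismutases and catalase, 161 for heme oxygenases, Nqo1 and sulfiredoxin, and 153 for the pi transferases. Thioredoxins with their reductases had 114, metallothioneins 113 and glutathione peroxidases 90.2. Several of these medians rest on few genes and moved with the genes or lengths taken. Among members with at most 10% of exonic bases under another gene, glutathione synthesis and reduction had a median of 345, against 32.6 over all its members, the heme oxygenase class had 272 and the metallothioneins had 13.5. By the longest coding transcript, thioredoxins with their reductases had 156, the pi transferases 142 and the heme oxygenase class 112. The alpha transferases, at 2.42, and the theta transferases, at 1.03, were below the median of all listed genes. Within a class the levels spread widely, from 36.5 to 1614 in the peroxiredoxins and from 7.86 to 2806 in the glutathione peroxidases.

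**Figure D3:**
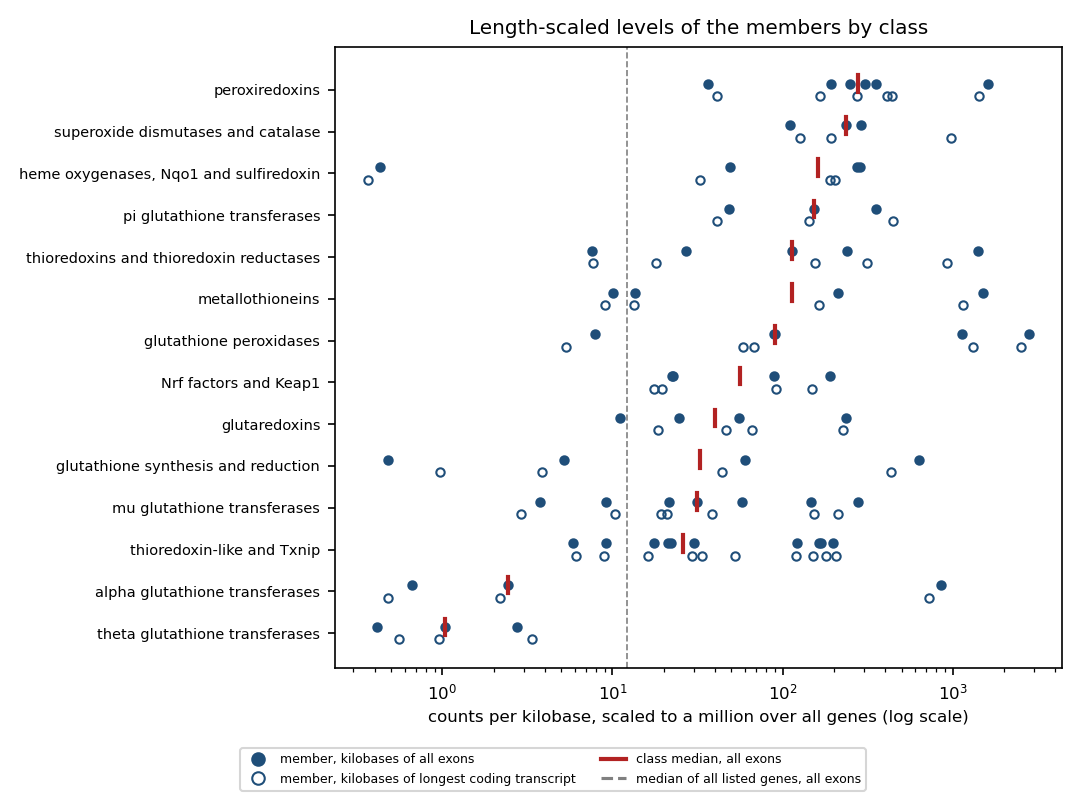
Level per kilobase (log axis) of each listed member by class, for all exons (filled) and the longest coding transcript (open), with class medians as red bars and the median of all listed genes, 12.1, as a dashed line. The alpha and theta transferase medians are left of that line and the other 12 class medians are right of it.

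Of the members under CPM 1 or not listed, 9 had at most 10% of their exonic bases under another gene and all the others had over 50%. Listed members under CPM 1 were Gss and Gsta2 with 9 counts each, Gstt1 and Gstt3 with 5 each, Hmox2 with 3 and Gsta1 with 2, and the members next above were Mt4 with 17 and Gstm7 with 19. Of the 55 members with no exonic base under another gene's span, 83.6% were at CPM 1 or more, against 52.9% of all annotated genes of that kind. Of the 11 members with over 50% of their exonic bases under another gene, 2 (Mt2 and Gclm) were at CPM 1 or more, Gss, Gstt3 and Hmox2 were below it, and 6 were not listed. Those 6 were Txnip under Gm15441, Gpx2 under Fntb, Gpx8 under Cdc20b, Gsto1 and Gsto2 under Cfap43, and Gsta3 under Gm28836. Of the 5 members that lay wholly under another gene, 0 were at CPM 1 or more, against 4.42% of 1469 such genes in the annotation. The share was 4.05% for 790 genes covered on the opposite strand only and 4.86% for 679 covered on the same strand in part or whole. For the 12 members not listed, absence of the transcript and the way overlapping reads were counted cannot be told apart where they overlap another gene. The other 6 of them, Gpx5, Gstt4, Prdx6b, Sod3, Txndc2 and Txndc8, had at most 10% of their exonic bases under another gene.

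**Figure D4:**
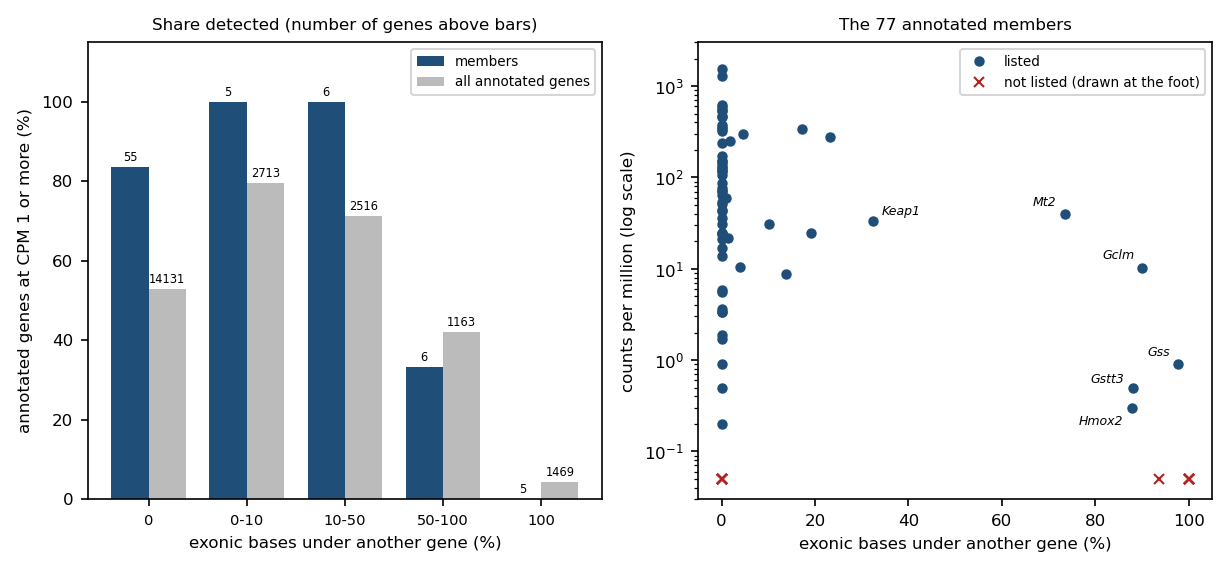
Left, share of annotated genes at CPM 1 or more (bars from 0) by the percentage of exonic bases under another gene, for the 77 members and all annotated genes, with gene numbers above the bars. Right, CPM (log axis) of each member against that percentage, where Mt2, Gclm, Gss, Gstt3 and Hmox2 are the listed members over 50% and crosses at the foot are members not listed.

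Genes that feed or use the same chemistry, taken from lists outside the symbol pattern, were read beside the members. For these lists the share of all annotated genes at CPM 1 or more, 54.5%, is the background (80.1% of all listed genes). The genes named as not listed lie wholly under other genes unless stated, so for them absence of the transcript and the counting of overlapping reads cannot be told apart. NADPH supply had 17 of 19 genes at CPM 1 or more, and its median level was 96.5 per kilobase, against 12.1 for all listed genes. Its highest counts were 8779 for Tkt of the pentose phosphate pathway, 6322 for Idh2, a mitochondrial isocitrate dehydrogenase, and 3262 for Taldo1. Its lowest gene at CPM 1 or more was Mthfd2l with 15, and G6pdx, the entry enzyme of the pathway, was not listed. For cystine and glutathione turnover, 15 of 18 genes were at CPM 1 or more, led by Slc3a2 with 6690 counts, the aminopeptidase Lap3 with 6406 and Slc25a39, the mitochondrial glutathione carrier, with 5290. Slc7a11, the partner of Slc3a2 in the cystine transporter, had 31 counts and a level of 0.704, against 599 for Slc3a2, and was chosen after its value was seen. Ggt5 was the lowest at CPM 1 or more with 11 counts, and Chac2 and Dpep1 were not listed.

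Of 21 Nrf2 targets outside the pattern 19 reached CPM 1, against 54.5% of all annotated genes, and the median level was 96.2. Tkt, which is also in the NADPH list, led with 8779 counts, followed by the ferritin genes Ftl1 with 6318 and Fth1 with 5362. The lowest was Aox1 with 27 counts, and Akr1b3 and G6pdx were not listed. All 15 partners and regulators of the Nrf factors reached CPM 1, from Sqstm1 with 3792 counts and Vcp with 3053 to Bach2 with 20. Of 9 genes for selenocysteine incorporation, 8 were at CPM 1 or more. Sephs1 led with 712 counts, then Sephs2 with 581 and Eefsec with 533. Scly was lowest at 47, with 99.3% of its exonic bases under another gene, and Pstk was not listed. Other selenoprotein genes reached CPM 1 in 12 of 16 cases, led by Selenof with 2450, Selenot with 1671 and Selenow with 849. Selenoi was the lowest of these with 27, and Selenoh, Dio1 and Dio2 were not listed, the Dio genes with at most 10% of their exonic bases under another gene.

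**Figure D5:**
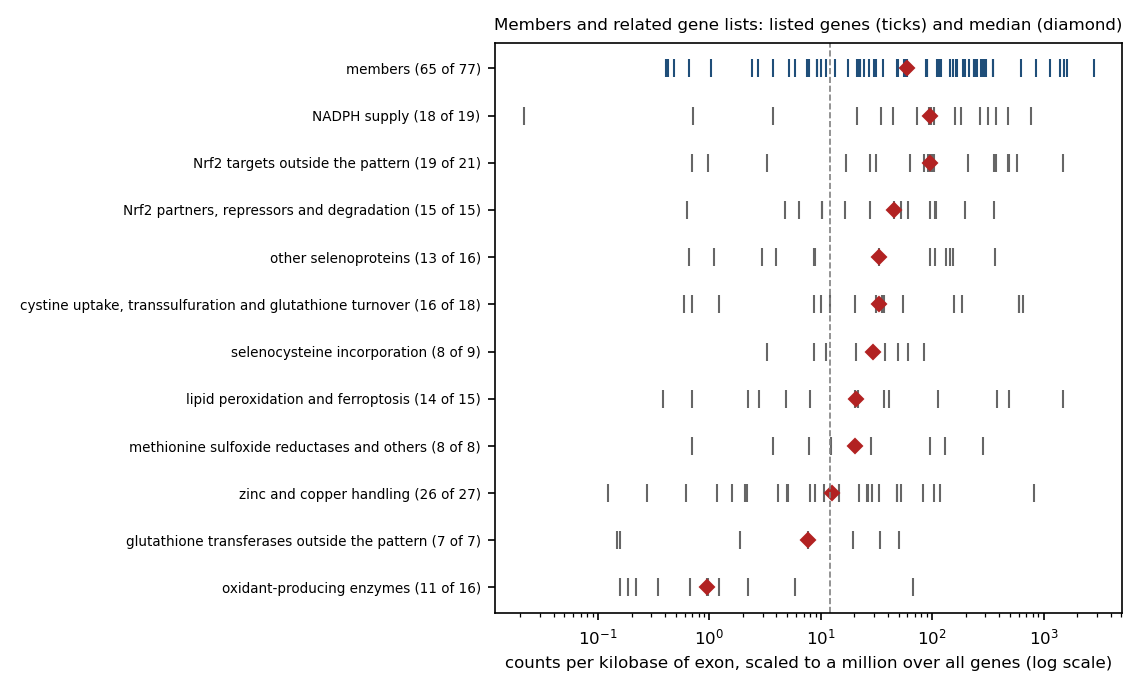
Level per kilobase of exon (log axis) of each listed gene (ticks) and the list median (diamond) for the members and 11 related lists, with listed and annotated gene numbers in brackets and the median of all listed genes as a dashed line. The members' median is 60.0, that of NADPH supply is 96.5 and that of the oxidant-producing enzymes is 0.944.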

How the data were processed

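For each protein-coding gene symbol the authors deposited a raw count, in 1 column. Per the submitters' processing notes, the tools were Subread 1.6.4 (featureCounts), Trimmomatic 0.38, SAMtools and HISAT2, and the build was GRCm38.p6. The sources used here do not give the annotation release, the strand setting or the counted feature. No test between samples was possible, since there was 1 group and 1 column.

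CPM was the count scaled by the column total, and symbols were matched to those of GENCODE M21. The 231 unmatched symbols held 0.860% of the counts. Levels per kilobase used merged exons. Counts had exact Poisson and shares exact Clopper-Pearson 95% intervals. Overlap was the share of exonic bases under another gene's span. Sequence sharing was the share of 90-base transcript words found in other genes on either strand, overlapping genes included. The functions were tested on simulated data. The members and lists were chosen with earlier results of these data known. Every member was named, and of each related list the 3 highest counts, the lowest at CPM 1 or more and the genes not listed, though not every gene so chosen is reported here. Alternatives covered thresholds, pseudocount, length, overlap and motif. Python 3.11.15, numpy 2.4.6, pandas 2.3.3, scipy 1.17.1 and matplotlib 3.10.9 were used.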

Additional observations from a re-analysis of the deposited data

How the results depend on the processing

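The number of members at CPM 1 or more, 59, was 61 at a minimum of CPM 0.5, 54 at CPM 5 and 59 at 10 counts or more. It was 49 without the Txnl, Txnip and Txndc genes, 51 among overlap-free members and 50 among members with under 10% shared words. Those last settings leave members out and so lower the number by construction, and the shared-word setting was chosen after seeing the data. The difference between the median of the members and that of all listed genes, 1.51 on the log2 scale, kept its direction in each setting. It was 1.55 with a pseudocount of 0.1, 2.22 per kilobase of exon, 1.16 among genes at CPM 1 or more, 3.35 with unlisted annotated genes at 0 and 1.70 among overlap-free genes. It was 1.45 without the Txnl, Txnip and Txndc genes, and 1.83 for members with under 10% shared words, a setting chosen after seeing the data. The members' share of counts, 1.11%, was 1.20% of the total without the 20 highest genes and 1.01% without the Txnl, Txnip and Txndc genes. The wider motif TGANNNNGC was in 48.4% of member promoters, against 41.3% of all promoters. The leading gene was the same in 11 of 14 classes by raw count and in 12 by the longest coding transcript, and by construction only the length differed between these settings. Leaving out replicate 1 or replicate 2 was not run, because the counts have 1 column. No paired analysis was possible because there was 1 group and 1 column. Depth limits genes of a few counts, such as Gsta1 with 2.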

Other observations

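Genes of iron handling and lipid peroxidation, the setting in which Gpx4 works, had 13 of 15 members at CPM 1 or more, against 54.5% of all annotated genes, and a median level of 20.9 per kilobase, against 12.1 for all listed genes. The highest counts were 7500 for Tfrc, the transferrin receptor, and 6318 and 5362 for the ferritin genes Ftl1 and Fth1. The iron exporter gene Slc40a1 was the lowest at CPM 1 or more with 11 counts. Alox15, with 0% of its exonic bases under another gene, was not listed. Enzymes that produce oxidants had 5 of 16 at CPM 1 or more and a median level of 0.944. Maoa, an X-linked monoamine oxidase of mitochondria, had 881 counts and Duox1 had 37, with Aox1 lowest of the 5 at 27. Nox3, Cyba, Noxa1, Xdh and Maob were not listed, and only Cyba of these lies wholly under another gene.

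Of 27 zinc and copper genes 23 reached CPM 1, against 54.5% of all annotated genes, and the median level of 12.6 was close to the 12.1 of all listed genes. Atox1, a copper chaperone, led with 1412 counts, then the zinc importers Slc39a4 with 1163 and Slc39a10 with 1018. Slc31a1, the main copper importer, had 16 counts, with 97.3% of its exonic bases under another gene, and Sco2, wholly under another gene, was not listed. Among 8 genes of methionine sulfoxide repair and related functions 7 were at CPM 1 or more, led by Park7 with 2237 counts, Sesn2 with 1427 and Sesn3 with 596, with Msrb2 lowest at 34. Of 7 glutathione transferase genes outside the pattern 5 were at CPM 1 or more, with Gstz1 at 547 counts, Gstcd at 335, Mgst3 at 174 and Mgst2 lowest of the 5 at 22.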
